A study of Caenorhabditis elegans with 26 samples.

Results

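The genes described here code for 10 immunoglobulin-domain proteins of the neuronal surface in Caenorhabditis elegans: zig-1, zig-2, zig-3, zig-4, zig-5, zig-8, rig-3, rig-6, wrk-1 and sax-7. They were picked by symbol, through the array annotation, from 17118 genes measured on 26 Affymetrix arrays of whole embryos. All 10 were on the array, with 15 probe sets in all. The X chromosome carries 5 of them (zig-2, zig-3, zig-4, rig-3 and wrk-1). The other 5 are autosomal: zig-1 on chromosome I, rig-6 on II, zig-5 and zig-8 on III, and sax-7 on IV. The choice was made with results in view, since zig-3 in sdc-2 embryos and rig-3 in dpy-27 embryos were already known to be among the larger X-linked rises. The changes of the members in those comparisons are therefore a description of these arrays, and no p is given for that pair of values.

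Immunoglobulin-domain proteins on or around neurons hold axons and cell bodies in place, and they let neurons recognise partners. SAX-7 is the worm relative of the vertebrate adhesion molecule L1CAM. RIG-6 resembles the contactins. The secreted ZIG-3 and ZIG-4 proteins keep axons of the ventral nerve cord in position, and ZIG-5 and ZIG-8 act with SAX-7 in keeping the nervous system in order. WRK-1 acts with ephrin signalling to keep axons from crossing the ventral midline, and RIG-3 limits acetylcholine receptors at neuromuscular junctions. In worms with a pair of X chromosomes, a dosage compensation complex sits on each and reduces its transcription. SDC-2 brings the complex to X, DPY-27 is a condensin-like subunit, and XO embryos normally do not use it.

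The embryos came from bleached gravid adults and fell into 6 groups. On RNAi plates, 3 arrays held sdc-2(y93) XX embryos whose mothers ate bacteria carrying an sdc-2 plasmid, and 3 held N2 wild-type XX embryos given an insert-free plasmid. On NG plates, 3 arrays held dpy-27(y57) XX embryos and 3 held wild-type XX embryos. On egg plates, 8 arrays held XO embryos of strain TY2222, which combines her-1(hv1y101) with xol-1(y9), sdc-2(y74) and unc-9(e101), and 6 held wild-type XX embryos. That comparison therefore sets embryos with 1 X chromosome and an sdc-2 mutation against embryos with a compensated pair. The series text calls the arrays biological replicates. The titles carry dates, written here as codes 1 to 5 in calendar order. The XO arrays hold codes 2 (3 arrays) and 5 (5 arrays) and their controls codes 2 (3) and 4 (3). The sdc-2 arrays hold code 5 and their controls code 3. The dpy-27 arrays hold code 1 and their controls code 2. In the sdc-2 and dpy-27 comparisons genotype and date therefore cannot be told apart, and code 2 alone gives the XO comparison within a date.

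Values are RMA log2 expression, from 3.07 to 14.5 over all probe sets. Arrays from RNAi plates spread less over their probe sets (SD 2.00 to 2.06) than those from egg plates (SD 2.27 to 2.32) or NG plates (SD 2.41 to 2.45), so levels were compared within a plate type only. Arrays of 1 group and date correlated over genes at 0.984 to 0.998. In sdc-2 embryos, 1 of the sdc-2 probe sets read 7.82 to 8.14 against 9.25 to 9.42 in controls, and the brighter one 9.37 to 9.90 against 9.93 to 10.09. In dpy-27 embryos the brighter dpy-27 probe set read 10.37 to 10.55 against 10.41 to 10.59 and the dimmer one 5.96 to 6.27 against 5.13 to 5.54, and an allele need not lower its transcript. Of the 18 neuronal markers, 1 or 2 lay below the lower quartile of an array. Adult and sperm markers (7) averaged 4.66 to 6.30 and early-embryo markers (8) 8.62 to 9.53. The arrays hold whole embryos, so fewer neurons and less RNA per neuron cannot be told apart.

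In sdc-2 XX embryos 4 of the 5 X-linked members passed the threshold upward, an adjusted p under 0.05 over all genes in limma. None of the 5 autosomal members did, also at an unadjusted p under 0.05, and 2 passed downward. The rises were zig-3 (6.23-fold), wrk-1 (2.66-fold), rig-3 (2.52-fold) and zig-4 (1.90-fold). The falls were zig-8 and zig-1. Among all X-linked genes 30.7% passed upward. Among all autosomal genes 4.68% passed upward and 13.3% downward. These shares stand beside the members' counts, and nothing is read from the difference because the members were chosen on this comparison. The median log2 change was 1.33 over X-linked members and -0.41 over autosomal members, beside 0.23 over all X-linked and -0.01 over all autosomal genes.

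Among the secreted ZIG proteins zig-3 moved farthest. Its log2 level was 8.87, 9.04 and 9.25 on the sdc-2 arrays and 6.4, 6.52 and 6.33 on their controls. The lowest sdc-2 array lay well above the highest control array. The zig-3 controls lay below the array medians of RNAi plates, 6.65 to 6.73. The log2 change was 2.64 (SE 0.14), at the 99.9th percentile of X-linked genes. Its X-linked neighbour zig-4, with no protein-coding gene between them in the NCBI gene table, read 8.64, 8.23 and 8.64 against 7.36, 7.54 and 7.81. Here too the groups did not overlap, with a smaller log2 change of 0.93 (SE 0.19). The X-linked zig-2 was dim, at 6.82, 5.93 and 5.98 against 6.09, 5.97 and 5.95. A single array, sdc-2 replicate A, stood high, and the log2 change of 0.24 had a 95% interval of -0.11 to 0.60.

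Both X-linked surface genes rose in sdc-2 embryos on the probe set that was brighter over all 26 arrays, mutants included. On the RNAi-plate controls the kept rig-3 probe set was the dimmer one, at a mean of 9.67 against 10.15. The kept wrk-1 probe set was the brighter one there too, at 9.95 against 9.28. For rig-3 the log2 levels were 10.78, 11.54 and 10.68 against 9.74, 9.86 and 9.40, a log2 change of 1.33 (SE 0.35). Replicate B was the highest array, and without it the log2 change was 1.06 with an adjusted p of 0.0762 in limma. Without control replicate C it was 1.20 (adjusted p = 0.0502, limma), again past no threshold. For wrk-1 the log2 levels were 11.13, 11.75 and 11.20 against 10.08, 10.01 and 9.77, a log2 change of 1.41 (SE 0.30). Replicate B was again the highest, and neither gene's groups overlapped.

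The autosomal members behaved differently from each other in sdc-2 embryos. zig-8 read 7.61, 7.53 and 7.42 against 8.21, 8.52 and 7.94, a log2 change of -0.70 (SE 0.19). zig-1 read 9.99, 9.98 and 10.17 against 10.41, 10.93 and 10.57, a log2 change of -0.59 (SE 0.15). All arrays of each lay below their controls, but both calls were lost without control replicate B, at -0.55 (adjusted p = 0.0774) and -0.44 (adjusted p = 0.0685) in limma. rig-6, the contactin relative, gave -0.41 (SE 0.21, adjusted p = 0.201 in limma), with 9.80, 9.63 and 9.79 against 9.93, 10.39 and 10.12. sax-7 gave 0.42 (SE 0.27, adjusted p = 0.341 in limma), with 10.48, 10.65 and 10.52 against 10.12, 10.23 and 10.04. Neither passed the threshold, although neither overlapped its controls. Arrays lay without overlap above their controls for 17.8% of all genes and 47.7% of X-linked genes, and below them for 21.8% of all genes. In a fit on the RNAi-plate arrays alone the sax-7 value was called (adjusted p = 0.0143, limma). The remaining member, zig-5, gave -0.18 (95% interval -0.53 to 0.18) and its groups overlapped.

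The zig-3 rise in sdc-2 embryos helped choose the members, so its call under another fit is a description only. When date code entered the fit as a random block, zig-3 alone kept its call in sdc-2 embryos. Code 5 is otherwise held only by XO arrays from egg plates, and code 3 only by these controls. The block therefore cannot separate genotype from date in this comparison. The log2 changes of zig-4 (0.98, adjusted p = 0.28), wrk-1 (0.81, adjusted p = 0.619), rig-3 (0.63, adjusted p = 0.855), zig-1 (-0.75, adjusted p = 0.31) and zig-8 (-0.72, adjusted p = 0.447) then missed it in limma.

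**Figure D1:**
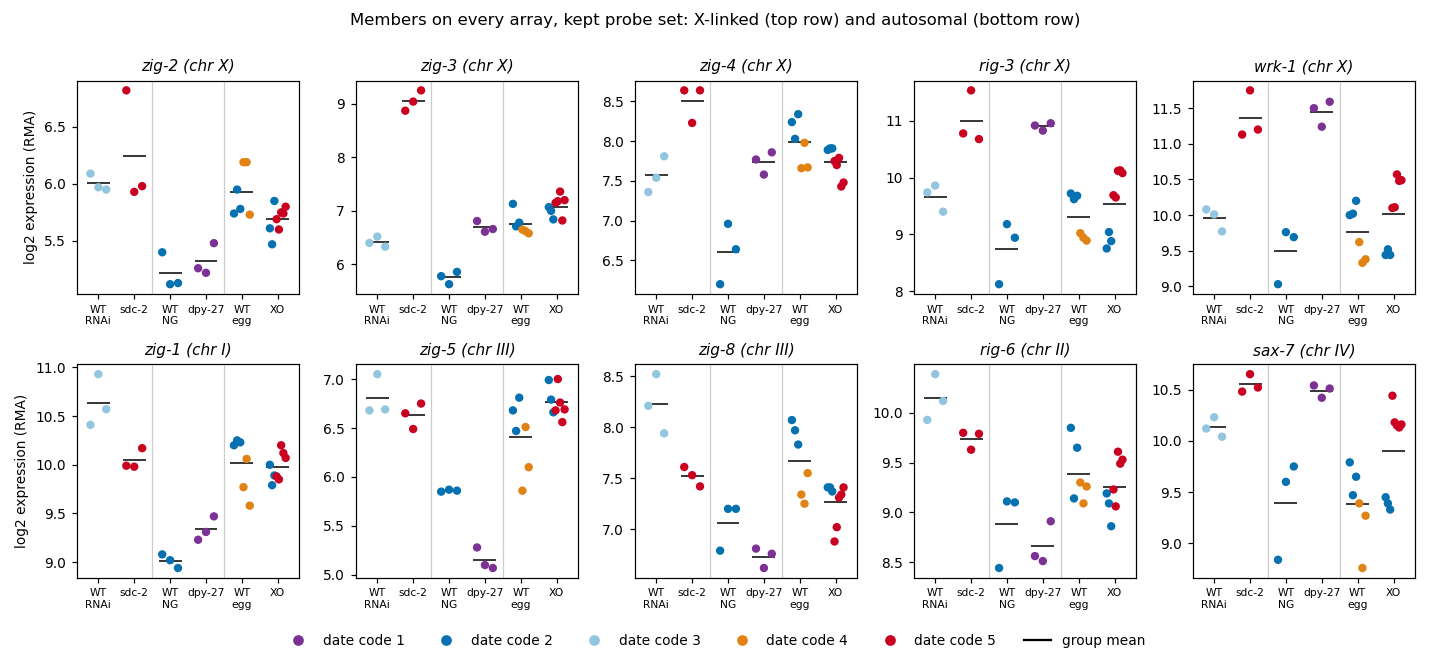
Log2 expression (RMA) of each member on all 26 arrays, by group, with the date code as colour and a bar at the group mean; the upper row holds the X-linked and the lower row the autosomal members. Grey lines part the plate types, between which levels are not comparable. The 3 sdc-2 arrays of zig-3 sit between 8.87 and 9.25, above their 3 control arrays at 6.33 to 6.52.

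In dpy-27 XX embryos the same 4 X-linked members passed upward and zig-2 did not. Of the autosomal members sax-7 passed upward and zig-5 downward. The rises were rig-3 (4.46-fold), wrk-1 (3.87-fold), zig-4 (2.20-fold), sax-7 (2.14-fold) and zig-3 (1.91-fold). Among all X-linked genes 39.2% passed upward, and among all autosomal genes 13.5% passed upward and 15% downward. Again nothing is read from those shares. The median log2 change was 1.14 over X-linked members and -0.22 over autosomal members, beside 0.26 over all X-linked and 0.01 over all autosomal genes.

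The X-linked surface genes rig-3 and wrk-1 led in dpy-27 embryos, on their brighter probe sets only. Their other probe sets gave log2 changes of 0.56 and 0.43, below zig-4 (1.14) and zig-3 (0.93). rig-3 read 10.92, 10.83 and 10.96 against 8.12, 9.18 and 8.94 in controls, a log2 change of 2.16 (SE 0.35). The mutant arrays were tight and the controls spread over more than 1 log2 unit, with control replicate A lowest. wrk-1 read 11.50, 11.24 and 11.59 against 9.03, 9.76 and 9.69, a log2 change of 1.95 (SE 0.30), with the same control array lowest. sax-7 read 10.54, 10.42 and 10.51 against 8.84, 9.60 and 9.75, a log2 change of 1.10 (SE 0.27). Without control replicate A the log2 changes were still called, and over all single-array omissions they ran from 1.85 to 2.37 for rig-3, 1.72 to 2.09 for wrk-1 and 0.82 to 1.28 for sax-7.

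The neighbours zig-3 and zig-4 rose by similar amounts in dpy-27 embryos. zig-3 read 6.81, 6.61 and 6.66 against 5.78, 5.63 and 5.86, a log2 change of 0.93 (SE 0.14). Its controls again lay below the array medians, 6.09 to 6.21 on NG plates. zig-4 read 7.77, 7.58 and 7.86 against 6.2, 6.96 and 6.64, a log2 change of 1.14 (SE 0.19). Neither pair of groups overlapped, as in rig-3, wrk-1 and sax-7. Of all genes 28.4% lay without overlap above their controls and 23.1% below, and of all X-linked genes 52.8% lay above. zig-2, which was dim here too, gave 0.11 (95% interval -0.25 to 0.46).

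Of the autosomal zig genes only zig-5 passed the threshold in dpy-27 embryos. It read 5.28, 5.10 and 5.07 against 5.85, 5.87 and 5.86, a log2 change of -0.71 (SE 0.17). These levels are dim, between percentiles 37.4 and 40.4 on the dpy-27 arrays. zig-1 read 9.23, 9.31 and 9.47 against 9.08, 9.02 and 8.94, and its log2 change of 0.32 (adjusted p = 0.12, limma) passed in 4 of 19 alternative settings. zig-8 gave -0.34 (95% interval -0.73 to 0.06) and rig-6 gave -0.22 (-0.66 to 0.21). Under the random block for date zig-5 (-0.55, adjusted p = 0.352) and sax-7 (0.99, adjusted p = 0.161) lost their calls in limma, and the 4 X-linked members kept theirs. Here too the block cannot separate genotype from date. Among these 4 X-linked members, rig-3 had a rise here that helped choose the members, so its kept call is a description only.

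**Figure D2:**
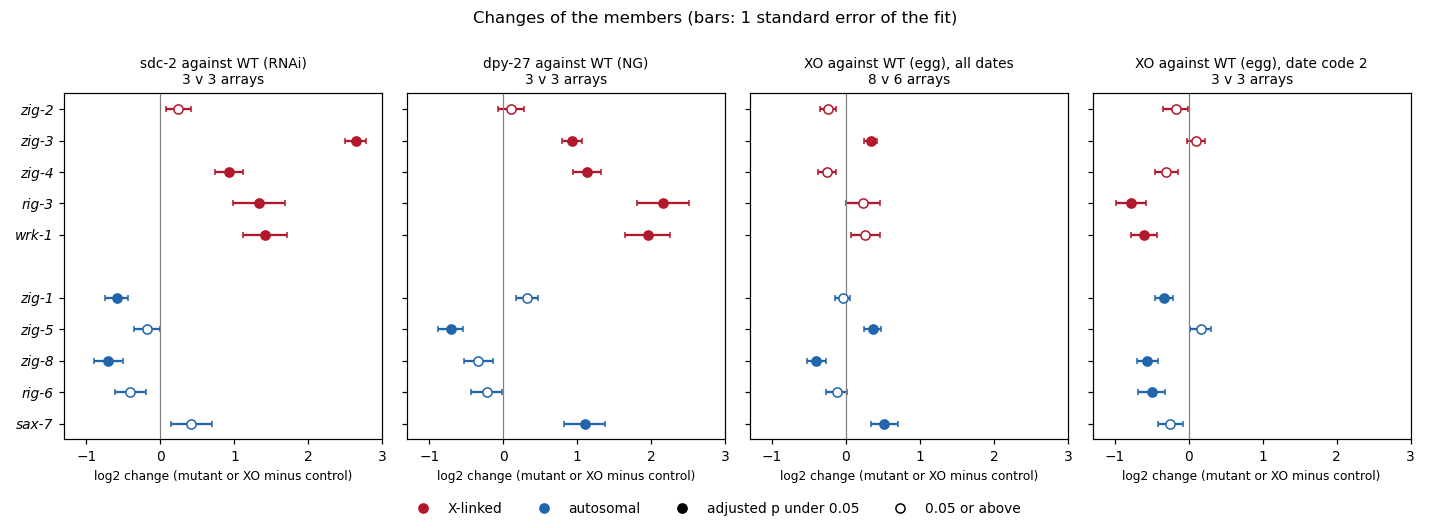
Log2 change of each member (x axis) in the 3 plate-matched comparisons and in the XO comparison within date code 2, with bars of 1 standard error of the fit. Filled points passed an adjusted p under 0.05, which 4 of the 5 X-linked members (red) did upward in both sdc-2 and dpy-27 embryos and none did upward within date code 2.

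Levels of different plate types can be set side by side as ranks within each array. In sdc-2 embryos zig-3 stood between percentiles 74.8 and 78.2 of its array. In XO embryos it stood at 54.3 to 59.6, in dpy-27 embryos at 54.8 to 56.8 and in wild-type embryos from egg plates at 52.4 to 56.2. Those 3 ranges overlapped. Wild-type embryos from RNAi plates (44.6 to 47.2) and NG plates (44.4 to 46.7) came lowest and overlapped each other. The rig-3 order depended on the probe set. On the kept one the highest ranks were in dpy-27 (94.5 to 95.1) and sdc-2 embryos (91.5 to 96.2), which overlapped, and the 4 remaining groups lay between 68.5 and 89.1. On the other one sdc-2 embryos ranked highest (91.6 to 93), wild-type embryos from RNAi plates next (86.3 to 89.6), and dpy-27 embryos (79.1 to 82) within the range of wild-type embryos from egg plates (74.6 to 83.8).

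XO embryos answer a different question, because they hold 1 X chromosome against a pair that is compensated. Over all egg-plate arrays zig-3 (log2 0.33, SE 0.09, adjusted p = 0.00761), zig-5 (0.36, SE 0.11, adjusted p = 0.0192) and sax-7 (0.52, SE 0.18, adjusted p = 0.033) were higher in limma. zig-8 was lower, at -0.40 (SE 0.13, adjusted p = 0.0191, limma). The other 6 members were not called: zig-4 gave -0.26 (adjusted p = 0.137), zig-2 -0.24 (adjusted p = 0.114), rig-3 0.23 (adjusted p = 0.498), wrk-1 0.26 (adjusted p = 0.349), zig-1 -0.04 (adjusted p = 0.799) and rig-6 -0.12 (adjusted p = 0.542) in limma. The sax-7 call was lost without any 1 of the 5 XO arrays of code 5 or the 3 controls of code 4 (log2 0.39 to 0.52). The zig-5 call was lost without control 4A or 4C, and the zig-8 call without control 2A or 2B. The members called were thus 1 of 5 X-linked upward and, of 5 autosomal, 2 upward and 1 downward. Among all X-linked genes 2.68% passed upward and 33.4% downward, and 17.8% of autosomal genes passed upward and 11% downward. The median log2 change was 0.23 over X-linked members, beside -0.14 over all X-linked genes.

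The XO values depended on the date. Within date code 2, with 3 arrays against 3, no member passed upward and 5 of 10 passed downward. They were rig-3 (log2 -0.78, adjusted p = 0.00381), wrk-1 (-0.61, adjusted p = 0.00618), zig-8 (-0.56, adjusted p = 0.00238), rig-6 (-0.50, adjusted p = 0.0299) and zig-1 (-0.34, adjusted p = 0.029), all from limma. In that contrast 47.2% of X-linked and 14.6% of autosomal genes passed downward. The median log2 change was -0.30 over X-linked members and -0.34 over autosomal members, beside -0.28 over all X-linked and 0.05 over all autosomal genes. zig-3 gave 0.10 (adjusted p = 0.601), zig-5 0.16 (adjusted p = 0.409) and sax-7 -0.25 (adjusted p = 0.26) in limma, so none of the rises over all dates was called there. In that contrast 1.62% of X-linked and 23.9% of autosomal genes passed upward. No member did at an unadjusted p under 0.05 either.

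The date differences within a genotype were as large. At code 2 the rig-3 level was 8.75, 9.04 and 8.88 in XO embryos and 9.72, 9.62 and 9.68 in wild-type embryos. At code 5 the XO level ran from 9.65 to 10.13, and at code 4 the wild-type level ran from 8.89 to 9.02. At code 2 the XO arrays thus lay below the controls of that date and overlapped the controls of code 4, while 3 of the 5 XO arrays of code 5 lay above all controls. wrk-1 read 9.44, 9.52 and 9.44 in XO and 10.00, 10.02 and 10.20 in wild-type embryos at code 2. At code 5 its XO level was 10.10 to 10.57, and at code 4 its wild-type level was 9.33 to 9.62. For sax-7 the XO level was 9.33 to 9.45 at code 2 and 10.13 to 10.44 at code 5.

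Tested as contrasts of their own, 7 of the 10 members fell between codes 2 and 4 in wild-type embryos. They were rig-3 (log2 -0.72), wrk-1 (-0.63), zig-8 (-0.58), sax-7 (-0.50), zig-5 (-0.49), zig-4 (-0.43) and zig-1 (-0.43), with limma adjusted p from 0.0021 to 0.0322. Of all genes, 18.4% fell between these dates and 19.9% rose. Between codes 2 and 5 in XO embryos 3 members rose: rig-3 (1.04, adjusted p = 8.61e-05), wrk-1 (0.89, adjusted p = 6.5e-05) and sax-7 (0.82, adjusted p = 8.23e-05) in limma. There 18.9% of all genes rose. Marker lists of several tissues differed by date too. The mean of the neuronal markers was 8.51 to 8.61 at code 2 and 7.77 to 7.86 at code 4 in wild-type embryos, and 7.80 to 8.16 at code 2 and 8.53 to 8.68 at code 5 in XO embryos. At code 2 they were thus lower in XO than in wild-type embryos, without overlap. Muscle markers averaged 10.37 to 10.43 at code 2 and 9.48 to 9.62 at code 4 in wild-type embryos, and 9.43 to 9.73 at code 2 and 9.49 to 9.80 at code 5 in XO embryos. Intestine markers averaged 9.20 to 9.29 and 8.52 to 8.60 in wild-type embryos, and 8.50 to 8.71 and 8.45 to 8.84 in XO embryos. Both were lower in XO than in wild-type embryos at code 2, as the neuronal markers were, but overlapped between the XO dates. Early-embryo markers averaged 8.88 to 9.25 in XO and 8.62 to 8.77 in wild-type embryos at code 2, and 9.29 to 9.38 in wild-type embryos at code 4. The part of embryo stage or tissue content in these member changes was not tested. zig-3 was called in neither contrast, at -0.26 (adjusted p = 0.102) and 0.17 (adjusted p = 0.229) in limma.

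A pair of X-linked members and sax-7 have several probe sets, which did not move alike. The kept rig-3 probe set, 174334_at, gave 1.33 in sdc-2 and 2.16 in dpy-27 embryos, and the other, 181180_at, gave 0.59 (SE 0.19) and 0.56 (SE 0.19). Its log2 levels were 10.84, 10.63 and 10.75 against 10.06, 10.36 and 10.03 in sdc-2 embryos, and 9.21, 9.13 and 8.99 against 8.42, 8.61 and 8.62 in dpy-27 embryos. The groups did not overlap in either comparison, so both rig-3 probe sets were higher in both mutants. For wrk-1 the kept probe set 174176_at gave 1.41 and 1.95. The other, 183649_at, gave 0.38 (adjusted p = 0.144) and 0.43 (adjusted p = 0.0704) in limma over the probe sets. Its sdc-2 arrays read 9.75, 9.48 and 9.76 against 9.28, 9.40 and 9.16, higher without overlap but past no threshold.

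In the XO comparison over all dates these second probe sets gave values below 0, and that of wrk-1 passed the threshold. 181180_at of rig-3 gave -0.30 (adjusted p = 0.0713) and 183649_at of wrk-1 gave -0.40 (adjusted p = 0.0117) in limma, while the kept ones gave 0.23 and 0.26. Within date code 2 both probe sets of each gene were lower, at -0.78 and -0.63 for rig-3 and at -0.61 and -0.36 for wrk-1. All 4 values were called, with limma adjusted p from 0.000996 to 0.0484. The fall of these X-linked genes within a date therefore held on either probe set.

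sax-7 has 4 probe sets. In dpy-27 embryos 174589_at (1.17), 174590_s_at (1.10, the kept one) and 174238_at (0.90) were called upward, and 190677_at gave -0.07 (adjusted p = 0.748, limma). In sdc-2 embryos the 4 values ran from -0.16 to 0.67, and none was called. Over all dates of the XO comparison 174589_at (0.78, adjusted p = 0.00156) and 174590_s_at (0.52, adjusted p = 0.031) were called upward in limma, with the other pair at -0.09 and 0.13. The rises of sax-7 thus rest on some of its probe sets.

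**Figure D3:**
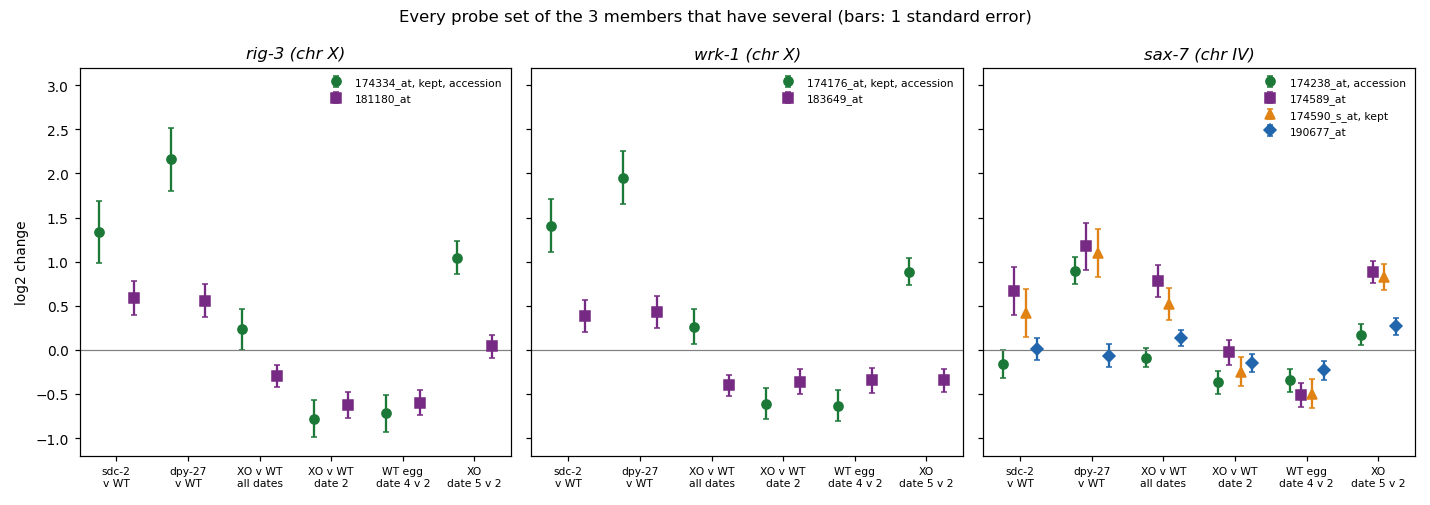
Log2 change (y axis) on each probe set of rig-3, wrk-1 and sax-7 in the 3 comparisons, within date code 2, and between dates of a genotype, with bars of 1 standard error. The green rig-3 and wrk-1 points, the kept probe sets, lie at 1.33 to 2.16 in the XX mutants and the purple ones at 0.38 to 0.59, while within date code 2 both lie below 0.

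The kept probe sets of rig-3 and wrk-1 share a feature. The array annotation gives a sequence accession for them and none for the second probe sets. Over 465 genes with both kinds of probe set, those with an accession gave higher log2 changes in sdc-2 embryos, by a median of 0.51, and in dpy-27 embryos, by 0.76. The median difference was 0.28 in the XO comparison over all dates and 0.43 between codes 2 and 5 in XO embryos. It was -0.004 within date code 2 and -0.08 between codes 2 and 4 in wild-type embryos. Among X-linked genes alone it was 0.63 in sdc-2 and 1.07 in dpy-27 embryos, and among 346 autosomal genes it was 0.48 and 0.66. For rig-3 the difference between its probe sets was 0.75 in sdc-2 and 1.60 in dpy-27 embryos, and for wrk-1 it was 1.03 and 1.52. Of the X-linked genes 38.7% exceeded the rig-3 value in sdc-2 embryos and 13.4% in dpy-27 embryos. For wrk-1 these shares were 21.8% and 17.6%. The part of this difference in the rises of rig-3 and wrk-1 was not tested. Neither zig-3 nor zig-4 has a probe set with an accession, and in sax-7 the probe set with one (174238_at) was not the one that rose most.

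**Figure D4:**
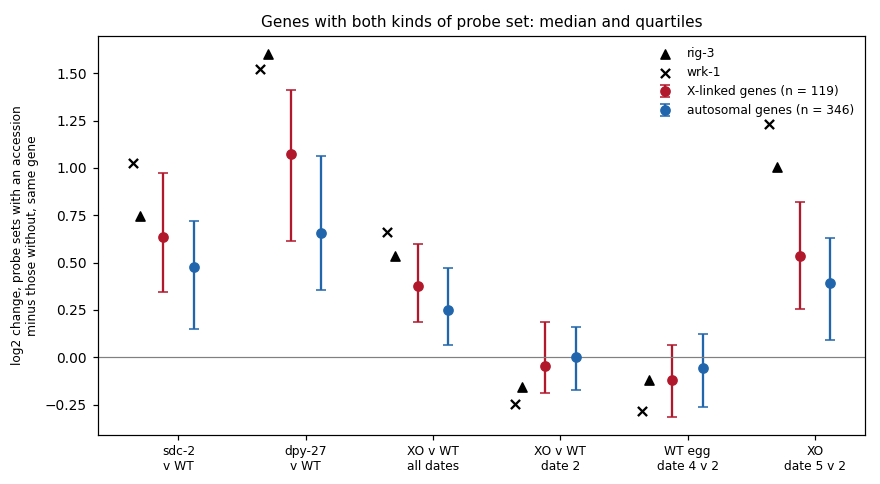
Difference in log2 change between probe sets with and without an accession of the same gene (y axis), as medians with quartiles over X-linked and 346 autosomal genes, with rig-3 and wrk-1 marked. The medians lie above 0 in the sdc-2 and dpy-27 comparisons, the XO comparison over all dates and the XO comparison of codes 5 and 2, and near 0 within date code 2.

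Members were also tested for a difference between comparisons. The dpy-27 and sdc-2 changes differed in 2 of 10 members (8.91% of all genes), the XO and sdc-2 changes in 4 (16.6%), and the XO and dpy-27 changes in 5 (21.3%). Each count holds zig-3 or rig-3, whose rises in sdc-2 or dpy-27 embryos helped choose the members, so the counts are descriptions. The plate types appear normalised apart, which limits them further. The pair that differed between the XX mutants was zig-3, with the larger change in sdc-2 embryos, and the autosomal zig-1, which was lower in sdc-2 embryos.

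The 26 arrays, centred within plate type, show which genes ran most like zig-3 and rig-3. The correlations describe arrays that share group, date and normalisation, so no p is given. Among 5334 genes zig-3 ran most like bcat-1 (r = 0.917, X-linked, a branched-chain aminotransferase gene), zipt-1 (0.916, on chromosome I, a zinc transporter gene) and ipla-2 (0.910, X-linked). rig-3 ran most like wrk-1 (0.989), ZC449.5 (0.984) and C11E4.6 (0.977), all X-linked. Between the second probe sets of rig-3 and wrk-1 r was 0.856. Between the 2 probe sets of 1 gene it was lower, at 0.645 for rig-3 and 0.366 for wrk-1. zig-3 and its neighbour zig-4 gave 0.667.

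Neuronal markers were followed beside the members. Their mean over 18 genes was 8.96 to 9.21 on sdc-2 arrays and 8.75 to 9.07 on controls, which overlapped, and 2 rose (unc-18 by log2 1.34 and aex-3 by 1.16, both X-linked) and 2 fell (unc-119 and unc-64). In dpy-27 embryos the mean was 8.25 to 8.28 against 7.84 to 7.97, without overlap, and 3 rose, aex-3 (log2 1.85) and unc-18 (1.09) among them, and 1 fell. In XO embryos it was 7.80 to 8.68 against 7.77 to 8.61. In sdc-2 embryos epidermal markers averaged 11.24 to 11.39 against 11 to 11.01 and early-embryo markers 9.20 to 9.28 against 8.68 to 8.94. In dpy-27 embryos epidermal markers averaged 10.66 to 10.77 against 10.18 to 10.46, and muscle markers 9.15 to 9.34 against 9.56 to 9.76. Intestine markers averaged 9.10 to 9.18 against 9.29 to 9.42 in sdc-2 and 8.24 to 8.35 against 8.52 to 8.72 in dpy-27 embryos. None of these epidermal, early-embryo, muscle and intestine ranges overlapped. Of the 9 epidermal markers 5 are X-linked. The median log2 changes of X-linked and autosomal epidermal markers were 0.90 and 0.16 in sdc-2 and 0.97 and 0.65 in dpy-27 embryos. The part of cell type or stage in the members' changes was not tested.

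The other immunoglobulin-domain genes on the list were measured for 32 of 37, of which 15 are X-linked. In sdc-2 embryos 9 X-linked and 2 autosomal genes rose and none fell in limma (2 fell at an unadjusted p under 0.05), where 8.28% of all genes rose and 11.5% fell. Over the array 30.7% of X-linked and 4.68% of autosomal genes rose. The 3 largest rises on the list were syg-1, which places synapses (log2 0.97, SE 0.19), the VEGF-receptor relative ver-3 (0.91, SE 0.20) and rig-1 (0.90, SE 0.25), all X-linked. In dpy-27 embryos 9 X-linked and 8 autosomal genes rose and none fell in limma, also at an unadjusted p under 0.05, where 17% of all genes rose and 13.5% fell. Over the array 39.2% of X-linked and 13.5% of autosomal genes rose. The same 3 genes led, with syg-1 at 1.54 (SE 0.19), rig-1 at 1.53 (SE 0.25) and ver-3 at 1.51 (SE 0.20). The median log2 change of the X-linked genes on the list was 0.53 in sdc-2 and 0.70 in dpy-27 embryos, beside 1.33 and 1.14 for the X-linked members. The members were chosen with large rises in these comparisons in view, so nothing is read from that difference.

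In XO embryos 7 of these genes fell, all X-linked, and 7 rose, all autosomal, where 14.1% of all genes fell and 15.8% rose. Over the array 33.4% of X-linked genes fell and 17.8% of autosomal genes rose, so the split by chromosome is not particular to the list. The largest falls on the list were zig-12 (-0.98, SE 0.14), igcm-1 (-0.63, SE 0.11) and igcm-2 (-0.55, SE 0.15). The largest rises were the receptor phosphatase gene ptp-3 (0.40, SE 0.14), the Ror receptor kinase gene cam-1 (0.40, SE 0.12) and rig-5 (0.33, SE 0.10). Within date code 2, 9 X-linked and 7 autosomal genes fell and 1 autosomal gene rose, where 19.1% of all genes fell and 20.8% rose. Over the array 47.2% of X-linked genes fell there, and of autosomal genes 14.6% fell and 23.9% rose. Autosomal genes of the list that were called thus rose over all dates and mostly fell within code 2, while the called X-linked genes fell in both. Over all 15 X-linked genes of the list, called or not, the median log2 change was -0.26 over all dates and -0.44 within code 2.

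**Figure D5:**
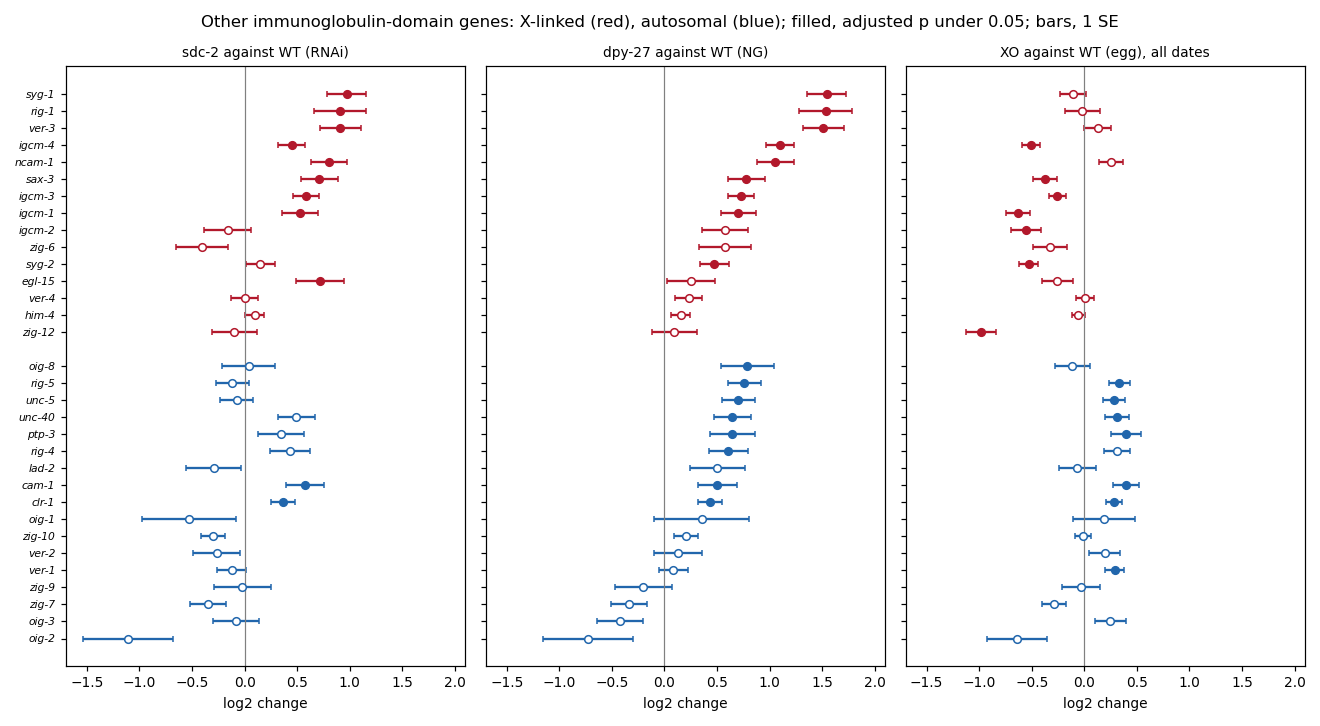
Log2 change (x axis) of 32 other immunoglobulin-domain genes in the 3 comparisons, with bars of 1 standard error and filled points past an adjusted p under 0.05. In sdc-2 and dpy-27 embryos 9 of 15 X-linked genes (red) are filled to the right of 0, and in XO embryos 7 are filled to the left.

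Partners and other guidance genes, 31 in all and 10 of them X-linked, were counted in the same way. In sdc-2 embryos 8 rose, all X-linked, and 5 fell, all autosomal. The shares over the array were 8.28% of all genes up and 11.5% down, with 30.7% of X-linked genes up and 13.3% of autosomal genes down. The rises were led by the glypican gene lon-2 (log2 1.17, SE 0.21), the netrin gene unc-6 (1.14, SE 0.23) and the syndecan gene sdn-1 (1.04, SE 0.24). The falls were led by the ephrin gene vab-2 (-1.04, SE 0.29), unc-34 (-0.67, SE 0.17), the Enabled relative, and lect-2 (-0.63, SE 0.16), which acts in dendrite guidance. In dpy-27 embryos 8 X-linked and 5 autosomal genes rose and 4 autosomal genes fell, where 17% of all genes rose and 13.5% fell. Over the array 39.2% of X-linked and 13.5% of autosomal genes rose, and 15% of autosomal genes fell. lon-2 (1.46, SE 0.21), unc-6 (1.41, SE 0.23) and the syntrophin gene stn-2 (1.38, SE 0.19) led the rises. vab-2 (-1.23, SE 0.29), unc-33 (-0.60, SE 0.13), a CRMP relative that is also on the neuronal marker list, and the cadherin gene hmr-1 (-0.57, SE 0.11) led the falls.

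In XO embryos 2 of the 31 rose, the ephrin gene efn-4 (0.45, SE 0.09) and the Fat-like cadherin gene cdh-4 (0.33, SE 0.10). The 6 that fell were led by vab-2 (-0.72, SE 0.19), the Slit gene slt-1 (-0.56, SE 0.14) and unc-34 (-0.47, SE 0.11). Of these slt-1 is X-linked. Over the array 15.8% of genes rose and 14.1% fell in this comparison. Of the 10 X-linked genes on the list 1 fell and 0 rose, where 33.4% of X-linked genes fell and 2.68% rose. Of the 21 autosomal genes 5 fell and 2 rose, where 11% of autosomal genes fell and 17.8% rose. Within date code 2, 7 X-linked and 5 autosomal genes fell and none rose in limma, with 2 rising at an unadjusted p under 0.05. There 20.8% of all genes rose and 19.1% fell, and 47.2% of X-linked genes fell.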

How the data were processed

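The authors deposited 1 log2 value for every probe set and array. The submitters' processing notes name RMA as the tool; its version and array set are not given in the sources used here. Of 22548 probe sets, 20766 name 1 gene in the array annotation. For the 2981 genes with several, the probe set brightest on average over all 26 arrays was kept. Mutant arrays count in that average, so a rise in a mutant can help choose the probe set. Chromosomes and gene order came from the NCBI gene table, and no coordinates are given.

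Changes were tested with limma 3.58.1 in R 4.3.3, in a fit with a mean for each group over 26 arrays (20 residual and 3.21 prior degrees of freedom), two-sided, with Benjamini-Hochberg adjustment over 17118 genes and a threshold of 0.05. Date contrasts came from a fit in which every combination of group and date had its own mean. Second probe sets were tested over all single-gene probe sets. There was no filter on low values. The kept probe sets of zig-5, rig-6 and sax-7 end in _s_at and can match several transcripts. The fit was also run on simulated data with independent noise and no date effect. That run cannot bear on the confounding of date with genotype. P-values measure the spread between arrays, whose number limits the precision. In the main fit this spread includes date differences, because the XO group and its egg-plate controls each pool arrays of different dates. It sets the standard errors of the sdc-2 and dpy-27 comparisons too. In both, the rig-3 standard error was 0.35 in the main fit and 0.21 with separate means by group and date. For sax-7 these values were 0.27 and 0.16. A call missed or lost there need not reflect replicate spread alone.

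The members and lists were chosen with earlier results of these data known. The text names all 10 members, up to 3 largest rises and falls of each list per comparison, and the 3 genes most correlated with zig-3 and rig-3. The marker genes unc-18, aex-3, unc-119 and unc-64 were named after their values were seen. Of the lists zig-11, oig-4, oig-5, oig-6, oig-7 and the early-embryo marker med-2 were not analysed here. Muscle, epidermis and intestine markers were measured as well: in sdc-2 embryos 1, 3 and 0 rose and 2, 1 and 1 fell, in dpy-27 embryos 1, 7 and 1 rose and 4, 2 and 3 fell, and in XO embryos 0, 2 and 0 rose and 6, 2 and 2 fell. Of the early-embryo markers 3 rose in sdc-2 embryos, 1 fell in dpy-27 embryos, and 1 rose and 1 fell in XO embryos.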

Additional observations from a re-analysis of the deposited data

Results flagged for a closer look

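In wild-type embryos from egg plates zig-3 read 7.13 on replicate 2A, apart from 6.58 to 6.78 on the other 5 arrays by Dixon's test. In all 30 groups of member values were checked, and chance gives such a flag in about 1 of 20.

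Some members changed by different amounts in different genotypes, tested within the same limma fit. The comparisons come from plate types that appear normalised apart, which limits these values. The dpy-27 change minus the sdc-2 change was 0.91 for zig-1 (adjusted p = 0.00941, limma) and -1.71 for zig-3, where 8.91% of all genes differed. The XO change minus the sdc-2 change was 0.55 for zig-1 (adjusted p = 0.0432), -2.31 for zig-3, -1.18 for zig-4 and -1.15 for wrk-1 in limma, where 16.6% of all genes differed. With quantile normalisation of all arrays the zig-1 value was 0.51 (adjusted p = 0.0819, limma). The XO change minus the dpy-27 change was -0.60 for zig-3, -1.39 for zig-4, 1.07 for zig-5, -1.93 for rig-3 and -1.69 for wrk-1, where 21.3% of all genes differed. In these sets the zig-3 change in sdc-2 embryos and the rig-3 change in dpy-27 embryos chose the members, so the differences that hold them are descriptions.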

How the results depend on the processing

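The calls in sdc-2 and dpy-27 embryos depended most on the date code, which coincides with genotype. As a random block it left 1 member up and 0 down and 28 genes up and 15 down in sdc-2 embryos, 0 members down and 565 genes up and 498 down in dpy-27 embryos, and 0 members up in XO embryos, where sax-7 turned to -0.049. The cause was not tested. The member left up in sdc-2 embryos was zig-3, whose rise there helped choose the members. With separate means by group and date, 2289 genes rose and 3212 fell in sdc-2 embryos, and 2 members fell in XO embryos. Array weights gave 2628 up and 2960 down in sdc-2 embryos, 2 members down in dpy-27 embryos, and 2 members down with 4122 genes up and 3917 down in XO embryos. At an adjusted p under 0.01, 1 member fell in sdc-2 embryos with 812 genes up and 1047 down, 1490 genes fell in dpy-27 embryos, and in XO embryos 1 member rose, 0 fell and 1498 genes fell. When probe sets with the endings _s_at and _x_at were left out, 0 members and 1454 genes fell in dpy-27 embryos, and above the dim level of 6.4 again 0 members, since zig-5 is then not tested. The egg-plate arrays alone gave 1 member up in XO embryos. Within date code 2 alone 0 members rose and 5 fell, with rig-3 at -0.78, wrk-1 at -0.61 and sax-7 at -0.25. Without probe sets that carry an accession, an alternative chosen after seeing the data like the counts within code 2, 2 members fell in XO embryos and wrk-1 reversed to -0.40. The difference of member medians, X-linked minus autosomal, in XO embryos was 0.27 and reversed to -0.029 with the mean of all probe sets.

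Leaving out 1 array at a time gave, in sdc-2 embryos, 3 to 4 members up, 0 to 2 down, 971 to 1401 genes up and 1102 to 1783 down, in dpy-27 embryos 5 up, 1 down, 2358 to 2524 genes up and 1832 to 2026 down, and in XO embryos 1 to 3 up, 0 to 1 down, 2395 to 2852 genes up and 2072 to 2581 down. Same-lettered deviations correlated at 0.053, 0.251 and 0.187 in the sdc-2 and 0.022, -0.325 and 0.114 in the dpy-27 comparison. Different-lettered ones ran from -0.301 to 0.209 and from -0.269 to 0.302. Deviations of 3 arrays sum to 0, so these values cannot settle whether the letters of the titles pair the arrays. With the replicate block of letters, XO embryos had 1 member up, 0 down and 1567 genes down.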
